A study of Mus musculus with 2 samples.

Results

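The complement genes described here are 9 of the 36998 gene names on the array: the C1q chains *C1qa*, *C1qb* and *C1qc*, the receptors *C3ar1* and *C5ar1*, the components *C3*, *C4b* and *Cfb*, and the inhibitor *Serping1*. The rule takes them by symbol and uses no measured value, and it takes in every non-control probe that carries one of these names, 13 of 56605 probes. Complement is a cascade of plasma and tissue proteins that tags debris, microbes and synapses for removal. In its classical arm the C1q complex binds a target and leads to cleavage of C4 and then of C3, whose fragments are read by receptors on phagocytes, while inhibitors hold the cascade back. In the brain, microglia are the main source of C1q and carry the receptors for the fragments C3a and C5a, and astrocytes in a reactive state are known to make C3, C4 and the C1 inhibitor. *C1qa*, *C1qb*, *C1qc*, *C3ar1* and *C5ar1* are called the microglial members, and *C3*, *C4b* and *Serping1* the astrocytic members. This division is background knowledge of cell types that can make these products, and does not name the main or only source of each gene. It was not measured in these whole-tissue samples, and *Cfb* was put in neither set.

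The values come from a pair of single-colour Agilent arrays, 1 for WT mice (strain label C57BL/6J) and 1 for Cx30 KO mice (strain label Cx30-LacZ), which lack connexin 30, a gap junction protein of astrocytes. Each array measured striatal RNA pooled from 2 male mice, so that 1 sample stood for each genotype and no value below has an error between mice or a test. At an age of 8 weeks, all mice were given MPTP, a toxin of dopaminergic neurons, in 4 doses of 20 mg/kg spaced 2 h apart, and tissue was taken on day 1. Tissue of mice without MPTP was not analysed here, so the comparison is between genotypes after MPTP and not with and without the toxin. The WT controls were offspring without the mutation from crosses of heterozygous mice, as the methods describe them, and differences of strain background and of the pools cannot be told apart from the genotype. *Gjb6*, which encodes connexin 30, had a signal of 1788 on the WT array and 111 on the Cx30 KO array and was 15.4-fold lower, in the direction of the labels. Signals are the scanner software's processed intensities in arbitrary units with the software's own error estimate, and ratios are Cx30 KO over WT after division by each array's 75th percentile (401 for WT, 382 for Cx30 KO). Of all probes, 56.6% in WT and 58.2% in Cx30 KO were well above background.

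A gene or probe was counted as lower when its Z-score was at most −2.0 and its ratio at most 0.66, and as higher when its Z-score was at least 2.0 and its ratio at least 1.5, which are the study's criteria. The Z-score sets a log2 ratio against the ratios of the 1000 probes nearest in mean signal. As a gauge of technical spread, different probes of the same gene differed in their log2 ratios with a pooled SD of 0.26 over 7147 genes. For repeated spots of the same probe the SD was 0.0315 over 295 probes, taken from the median variance. The SDs are thus of different kinds, and their sizes are not to be compared directly. Neither contains variation between animals.

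Of the 9 members, 8 were well above background, and *C4b* alone met the criteria, as a gene lower in Cx30 KO. This is 1 gene lower and 0 higher, where 3.39% of all 22008 genes well above background met the criteria for lower genes and 2.37% those for higher genes. By probe, 10 of the 13 were well above background, of which 2 were lower and 0 higher, against 2.93% and 2.07% of all probes, and both lower probes were those of *C4b*. The log2 ratios of the 8 genes ran from −0.83 to 0.59 with a median of −0.19, beside a median of 0.03 over all genes. The ratios of 5 lay below 0, where 45.4% of all genes did, and those of 3 lay above 0. The C1q chains, *C4b* and *Serping1* were on the lower side, and both receptors on the higher side. *C3* counts as above 0 by its brighter probe alone, and when its probes and those of *C4b* were averaged, 6 of the 8 lay below 0 and 2 above. In tissue RNA, fewer cells of a type and less RNA per cell cannot be told apart.

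**Figure D1:**
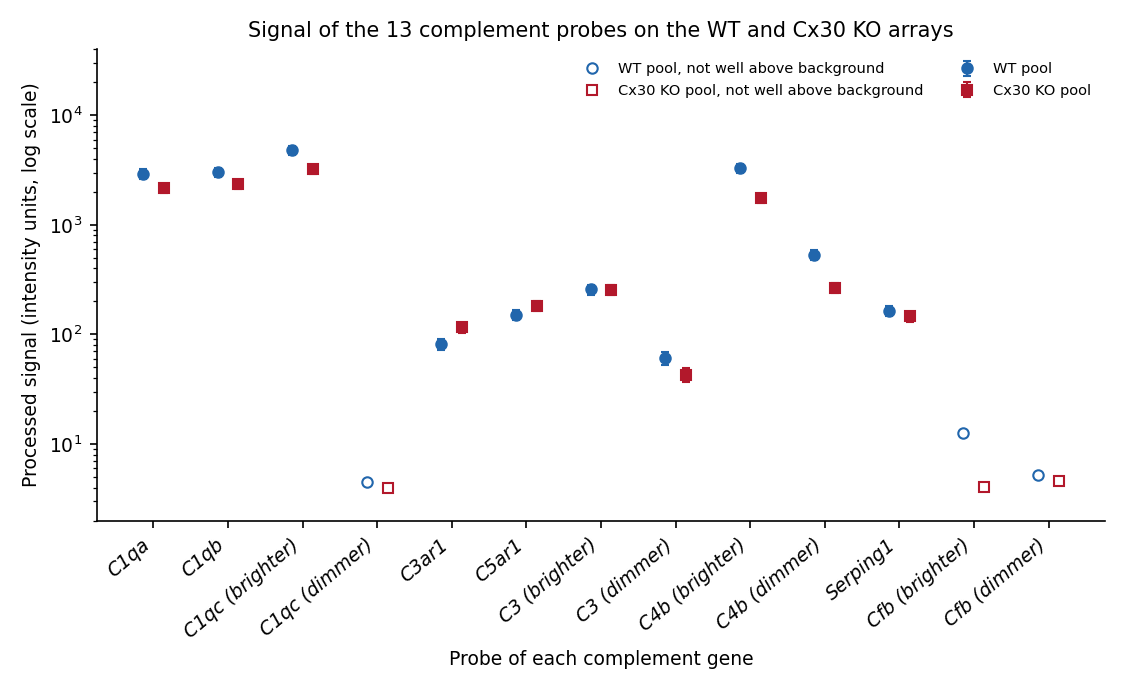
Processed signal of each probe of the 9 complement genes on the WT array (circles) and the Cx30 KO array (squares), in arbitrary intensity units on a log axis, with the scanner software's error as bars and open symbols for probes not well above background. The 3 *C1q* probes well above background and both *C4b* probes are lower in Cx30 KO, the *C3ar1* and *C5ar1* probes are higher, and both *Cfb* probes lie at background. Levels of different probes are not comparable, since each probe has its own affinity.

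The C1q complex is built from the products of *C1qa*, *C1qb* and *C1qc*, which lie next to each other on chromosome 4. The 60-base probes of *C1qa* and *C1qb* are shown because their signals stand for chains of the same complex, and their mm9 positions on the minus strand are chr4:136452409-136452468 and chr4:136436578-136436637.
C1qa probe: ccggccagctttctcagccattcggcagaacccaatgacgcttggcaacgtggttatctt
C1qb probe: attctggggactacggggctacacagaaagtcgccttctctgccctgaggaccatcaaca
*C1qa*, the A chain, had a signal of 2932 ± 293 on the WT array and 2154 ± 215 on the Cx30 KO array (± scanner error, n = 1 array each). Its log2 ratio was −0.37 with a scanner error of 0.20, a ratio of 0.772, and its Z-score was −1.33. *C1qb*, the B chain, had a signal of 3030 ± 303 on the WT array and 2344 ± 234 on the Cx30 KO array, for which the log2 ratio was −0.30 (Z-score −1.08). *C1qc*, the C chain, had a signal of 4790 ± 479 on the WT array and 3211 ± 321 on the Cx30 KO array at its probe at chr4:136445766-136445825. Its log2 ratio was −0.51, a ratio of 0.704, and its Z-score of −1.86 was the farthest from 0 among the microglial members without reaching −2.0. In all 3 genes the Cx30 KO value was the lower one and the log2 ratio exceeded the SD between probes of a gene, but none met the criteria. A further *C1qc* probe, at chr4:136447831-136447890, was not well above background on either array and adds no ratio.

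The neighbours of the C1q genes in RefSeq order did not share their direction throughout. On one side *Ephb2* had a log2 ratio of 0.32, and on the other *Epha8* had 0.50 and *Zbtb40* −0.32. *Wnt4*, a secreted signalling protein that lies next to *Zbtb40*, rose to a log2 ratio of 1.22 and met the criteria for higher genes. The C1q chains thus formed 3 adjacent genes with ratios below 0 between neighbours with ratios above 0.

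Sequences upstream of the gene start were available for 5 of the 9 members in the RefSeq table of GRCm38.p6 (*C1qb*, *C1qc*, *C3*, *C3ar1* and *C5ar1*). Those of *C1qb* and *C1qc* are shown as the upstream windows of adjacent genes whose probes shared a direction. Each is the 250 bases before the start on the minus strand, chr4:136886201-136886450 for *C1qb* and chr4:136892915-136893164 for *C1qc*, and the capitals mark a match to the core motif of PU.1, a transcription factor of the myeloid lineage.
C1qb upstream: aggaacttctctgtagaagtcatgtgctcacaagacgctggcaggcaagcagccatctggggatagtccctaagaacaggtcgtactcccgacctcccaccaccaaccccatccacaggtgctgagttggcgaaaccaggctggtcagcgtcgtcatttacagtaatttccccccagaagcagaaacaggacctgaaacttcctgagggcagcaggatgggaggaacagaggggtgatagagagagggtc
C1qc upstream: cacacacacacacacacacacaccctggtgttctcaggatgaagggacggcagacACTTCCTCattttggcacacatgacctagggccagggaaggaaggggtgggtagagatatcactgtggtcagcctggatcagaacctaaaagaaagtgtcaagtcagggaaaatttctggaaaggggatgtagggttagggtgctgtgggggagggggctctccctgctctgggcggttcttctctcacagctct
The PU.1 core was searched only in the form GAGGAAGT, on both strands. This form was found in 1 of the 5 windows, that of *C1qc*, where the reverse complement ACTTCCTC begins 195 bases before the start. Shorter forms were not searched, and the letters GAGGAA, a part of this form, also stand in the *C1qb* window shown. The same letters occur in 2.44% of 32851 windows of this length. TTGCNNAA, a C/EBP motif, was found in the *C3* window only and in 9.56% of all windows. TATAAA, the letters of the TATA box, was found in the *C3ar1* window only and in 12.4% of all windows. In *C3ar1* it begins 235 bases before the start and is given as a match of letters only. TTCNNNGAA, a STAT (GAS) motif, and the core of the interferon response element (ISRE) were in 0 of the 5 windows and in 7.02% and 2.98% of all. In the forms searched, no motif was shared by the C1q windows shown, which does not hold for shorter forms of the PU.1 core.

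The receptors of the complement fragments lay on the other side of 0. *C3ar1*, the C3a receptor, had a signal of 81.5 ± 9.27 on the WT array and 116 ± 12.3 on the Cx30 KO array at chr6:122798222-122798281. Its log2 ratio of 0.59 (scanner error 0.22), a ratio of 1.5, reached the ratio limit for higher genes, but its Z-score of 1.35 did not reach 2.0. *C5ar1*, the C5a receptor, had a signal of 150 ± 15.8 on the WT array and 182 ± 18.7 on the Cx30 KO array at chr7:16832094-16832135, for which the log2 ratio was 0.35 (Z-score 0.83). The interval that the files give for this probe spans 42 bases, although the probe has 60. Both receptors were dim, and ratios of dim probes scattered more widely, as the band of all genes in the plot of ratio against mean signal shows. None (0) of the 5 microglial members met the criteria in either direction. The C1q chains had log2 ratios between −0.51 and −0.30 and the receptors 0.35 and 0.59, and the median of all 5 was −0.30.

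**Figure D2:**
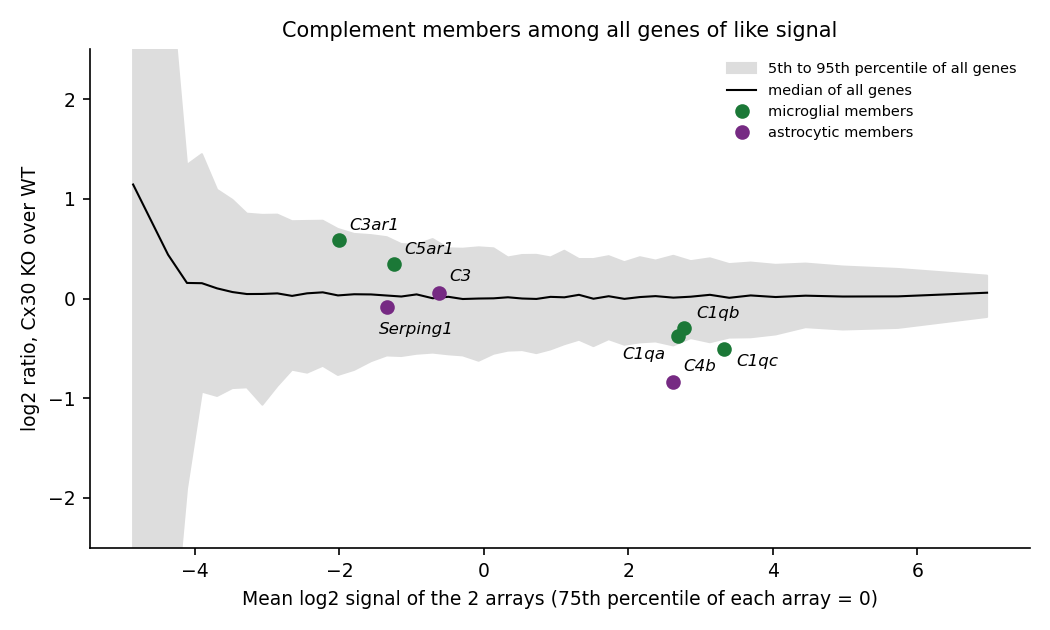
Log2 ratio of Cx30 KO over WT against the mean log2 signal of both arrays for the 8 complement genes well above background (1 point per gene), with the median (line) and the 5th to 95th percentile (grey) of all genes in bins of 500. *C4b* and *C1qc* lie below the grey band, *C3ar1* and *C5ar1* lie in the wide part of the band at low signal, and *C3* and *Serping1* lie near the median.

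Among the astrocytic members, *C3*, the component at which all arms of the cascade meet, had 2 probes well above background that did not give the same picture. The brighter one is shown because the ratio of *C3* rests on it, and it lies at chr17:57343678-57343737 on the minus strand.
C3 probe: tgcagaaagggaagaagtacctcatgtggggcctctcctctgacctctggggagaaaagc
Its signal was 257 ± 26.3 on the WT array and 254 ± 25.8 on the Cx30 KO array, and its log2 ratio was 0.05 (scanner error 0.21, Z-score 0.06). The dimmer probe, at chr17:57343416-57343475, had a signal of 60.8 ± 7.74 on the WT array and 42.9 ± 6.08 on the Cx30 KO array, and its log2 ratio was −0.43 (scanner error 0.27, Z-score −0.81). Neither met the criteria, and the mean of both probes was −0.19, so that no direction is given for *C3*. *Serping1*, the C1 inhibitor, which blocks the proteases C1r and C1s, had a signal of 163 ± 16.8 on the WT array and 146 ± 15 on the Cx30 KO array at chr2:84605663-84605722. Its log2 ratio of −0.09 was smaller than its scanner error of 0.21.

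*C4b*, the fourth component, which C1s cleaves after C1q has bound, fell in Cx30 KO at both of its probes. The brighter probe, at chr17:34865367-34865426, had a signal of 3279 ± 328 on the WT array and 1751 ± 175 on the Cx30 KO array. Its log2 ratio was −0.83 (scanner error 0.20), a ratio of 0.561, and its Z-score of −3.01 was the farthest from 0 among the members. The dimmer probe, at chr17:34866361-34866420, had a signal of 531 ± 53.3 on the WT array and 265 ± 26.8 on the Cx30 KO array, and its log2 ratio of −0.93, or 0.524 of the WT value, had a Z-score of −2.81. A probe named for *C4a*, the neighbouring near-copy that RefSeq lists as a transcribed pseudogene, had a signal of 116 ± 12.4 on the WT array and 60 ± 7.18 on the Cx30 KO array, and its log2 ratio of −0.88 (Z-score −2.22) also met the criteria. The sequences of the dimmer *C4b* probe and of the *C4a* probe are shown because the files assign each of them to transcripts of both genes.
C4b probe, dimmer: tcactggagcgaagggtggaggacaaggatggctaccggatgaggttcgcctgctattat
C4a probe: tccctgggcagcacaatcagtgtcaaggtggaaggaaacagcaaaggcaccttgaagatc
These probes cannot tell the genes apart, whereas the accessions given for the brighter *C4b* probe name *C4b* and not *C4a*. The 3 probes had log2 ratios within the scanner error of each other.

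*Cfb*, factor B of the alternative arm, lies in the same stretch of chromosome 17. Its probes, at chr17:34993502-34993858 and chr17:34994617-34994676, were not well above background on either array, with values of 12.5 and 5.21 in WT and 4.03 and 4.6 in Cx30 KO, all but the 12.5 being substitute values of the software, so no ratio is given. Of the genes between *C4b* and *C2* in RefSeq order, *Cyp21a1* had a log2 ratio of −0.20, *Stk19* 0.36, *Dxo* 0.52, *Skiv2l* −0.01 and *Nelfe* 0.08, and *C2*, the protease that joins C4 in the C3 convertase, had −0.02. *C4b* and *C4a* were the genes of this interval that met the criteria, *C4a* by a probe that does not tell it from *C4b*. On the other side of *C4b*, *Tnxb* had a log2 ratio of −0.63, *Atf6b* −0.22 and *Fkbpl* 0.24, and none of them met the criteria.

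**Figure D3:**
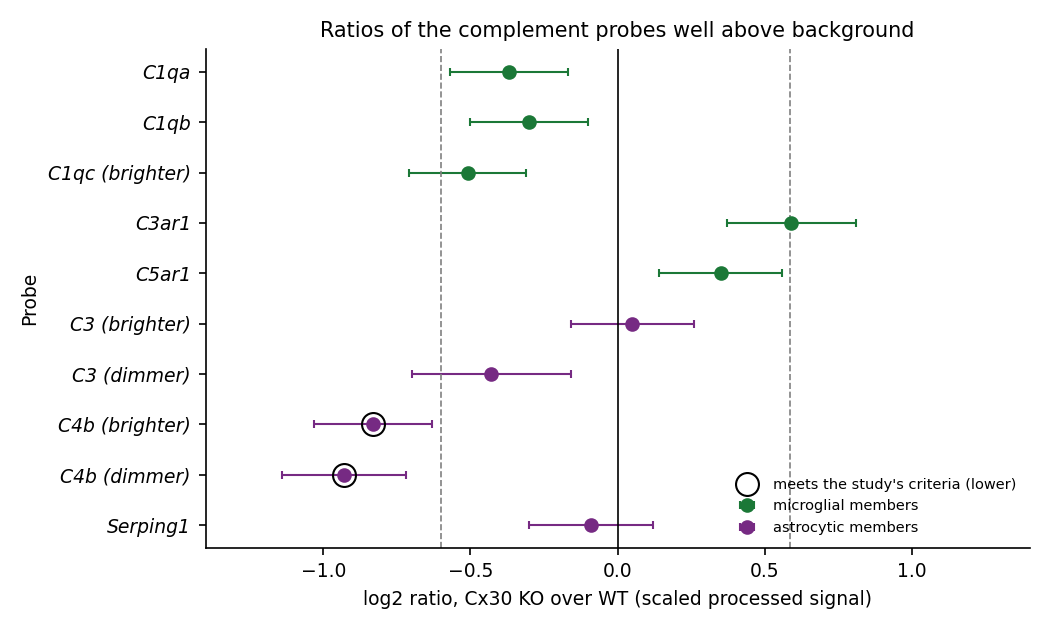
Log2 ratio of Cx30 KO over WT for the 10 complement probes well above background, with the error propagated from the scanner software as bars. Dashed lines mark the ratio limits of 0.66 and 1.5, and rings mark probes that also meet the Z-score criterion. The rings lie on both *C4b* probes, and the point of *C3ar1* lies at the upper limit without a ring.

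The microglial members had a median log2 ratio of −0.30 and the astrocytic members one of −0.09, a difference of −0.21. With 5 and 3 genes and 1 array a genotype, this difference was not tested. The spread within each set was wider than the difference between them, from −0.51 to 0.59 and from −0.83 to 0.05. Where a member stood relative to other genes of the cell type it was assigned to was described with marker lists that hold no complement gene.

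Of 18 microglia markers, all 18 were well above background, 15 had ratios below 0, and 7 met the criteria for lower genes and 0 those for higher genes. Their median log2 ratio was −0.37. The markers farthest from 0 were *P2ry12* (−1.69) and *P2ry13* (−1.02), purinergic receptors of resting microglia, and *Selplg* (−1.17), an adhesion ligand, and all 3 fell. *C1qa* lay 0.00 from the median of the markers, *C1qb* 0.08 above it and *C1qc* 0.13 below it, and 9, 13 and 8 of the 18 markers had lower ratios than these. *C3ar1* and *C5ar1* lay 0.96 and 0.72 above that median, and all 18 markers had lower ratios than either receptor by their brightest probes. The *Siglech* log2 ratio of 0.13 among these comes from a probe that holds a tandem repeat of 20 bases. Without probes that hold such a repeat, *Siglech* had a log2 ratio of 0.42, and 17 of the 18 markers were lower than *C5ar1* and 18 lower than *C3ar1*. *Olfml3*, at 0.32 by its brightest probe, lay close to *C5ar1* (0.35), and its other probes gave −0.41 and −2.95. The summed scaled signal of the list was 280 in WT and 262 in Cx30 KO (1 unit being the 75th percentile of the array), a sum led by that *Siglech* probe. Without the repeat probes the sum was 135 in WT and 105 in Cx30 KO, and the median stayed at −0.37. Of 6 perivascular macrophage markers, another possible source of C1q, 5 had ratios below 0. Of the 6, 1 (*Pf4*, a chemokine, at least 3.49-fold lower) met the criteria. *Lyve1*, well above background in Cx30 KO only, went the other way and was at least 1.29-fold higher. The 6 markers were dim, and 3 of them were well above background on both arrays. Their summed signal went from 0.655 in WT to 0.394 in Cx30 KO. Of 8 blood leukocyte markers, 5 were well above background with a median of 0.07, 0 met the criteria, and *Ccr2* and *Plac8* were among those not well above background on either array. *S100a9* had a log2 ratio of 0.89 (Z-score 1.98), and *S100a8*, well above background in Cx30 KO only, was at least 2.26-fold higher. *Ly6c2*, *Ly6g* and *Cd3e* had log2 ratios of −0.17, −0.09 and 0.07. What part these lists have in the ratios of the microglial members was not tested.

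Of 13 pan-reactive astrocyte genes, which the study examined on these same arrays, 12 were well above background and 10 met the criteria for lower genes. Their median log2 ratio was −1.23, and their summed scaled signal was 48.2 in WT and 21.2 in Cx30 KO. *Cd44* (−2.44), a hyaluronan receptor, *S1pr3* (−2.32), a sphingosine phosphate receptor, and *Timp1* (−1.89), a protease inhibitor, fell the most. *C4b* lay 0.40 above this median with 9 of the 12 genes lower, while *C3* and *Serping1* lay 1.28 and 1.14 above it with 10 of the 12 lower. The fall of *C4b* was thus shallower than that of most pan-reactive genes, and *C3* and *Serping1* were near the general astrocyte markers, whose median was −0.08. Of those 10 markers 1 (*Aqp4*, the water channel of astrocyte endfeet, at −0.95) met the criteria, and their summed signals were 475 (WT) and 451 (Cx30 KO). All of 7 oligodendrocyte markers had ratios below 0, of which 5 met the criteria, with a summed signal of 392 on the WT array and 244 on the Cx30 KO array. Of 7 endothelial markers 1 met the criteria (*Flt1* at −0.93 by its brightest probe), and their median was −0.19. The other *Flt1* probes had log2 ratios of 0.52 and −0.15 and did not meet the criteria. What part the oligodendrocyte and astrocyte lists have in the ratio of *C4b* was not tested.

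The pools also differed in markers of another region. All of 6 cortical neuron markers were higher in Cx30 KO, 5 of them by the criteria, with a summed scaled signal of 0.435 on the WT array and 3.64 on the Cx30 KO array. All of 9 striatal neuron markers were well above background on both arrays, 0 met the criteria, their median was −0.16, and their summed signals were 1226 (WT) and 1272 (Cx30 KO). Choroid plexus, which makes complement proteins, was represented by 6 markers, of which 5 were well above background and 1 met the criteria, *Ttr*, which fell by 1.27 on the log2 scale. The median of the 5 was −0.02, with *Folr1* at −0.58, *Clic6* at −0.02 and *Kl* at 0.23. *Otx2*, well above background in Cx30 KO only, went the other way from *Ttr* and was at least 1.6-fold higher, without meeting the criteria. The part of cortex or choroid plexus in the complement ratios was not tested.

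**Figure D4:**
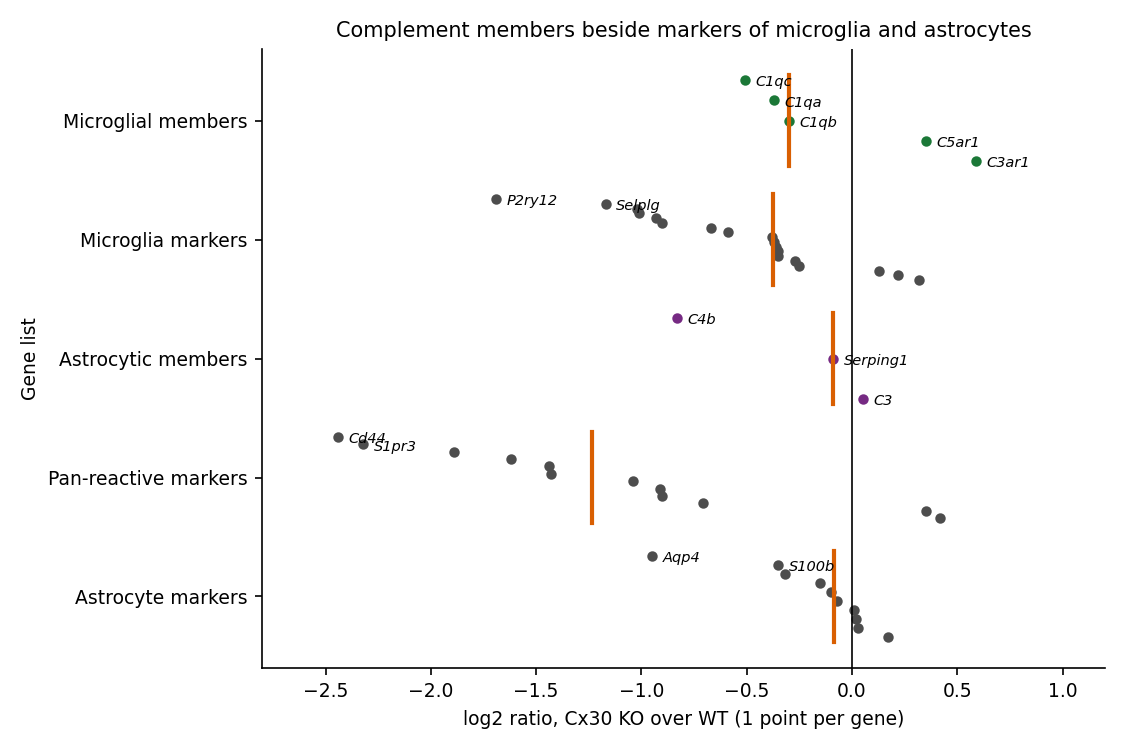
Log2 ratio of Cx30 KO over WT for the microglial and astrocytic complement members and for microglia, pan-reactive and general astrocyte markers (1 point per gene well above background), with the median of each list as a vertical bar and the genes farthest from 0 named. The C1q genes lie at the bar of the microglia markers (−0.37), the receptors lie to the right of every microglia marker as plotted (*Siglech* is drawn at 0.13, by a probe with a repeat, and its next probe gave 0.42), and *C4b* lies between the bars of the general astrocyte (−0.08) and pan-reactive (−1.23) markers.

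The rest of the complement system was read from 49 further genes, all of them on the array, of which 30 were well above background. Of these, 2 met the criteria for lower genes and 1 those for higher genes, 14 had ratios below 0 and 16 above, and the median log2 ratio was 0.01. Over all genes well above background, 3.39% met the criteria for lower genes and 2.37% those for higher genes. Ratios below 0 were found in 45.4% of all genes, whose median was 0.03. The counts of the further complement genes were thus near these shares. Recognition molecules and the C2 and C4 genes had 8 of 15 members above background. *Colec11*, a soluble pattern recognition lectin, rose from a signal of 60.2 in WT to 120 in Cx30 KO (log2 ratio 1.07, Z-score 2.46). *C4a* fell, as described with *C4b*, by a probe assigned to transcripts of both genes. *Mbl2*, mannose-binding lectin, and *Fcnb*, a ficolin, were well above background in Cx30 KO only and were at least 1.57-fold and at least 1.35-fold higher, and neither met the criteria. The proteases of the C1 complex (*C1ra*, *C1rb*, *C1s1* and *C1s2*) were not well above background on either array. Of the alternative arm, *Cfp*, properdin, had a log2 ratio of 0.01 and *Cfd* was not well above background.

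Terminal components were mostly at background: 5 of 7 were not well above it, *C5* (listed as *Hc*) among them, and *C7* and *C8g* had log2 ratios of −0.18 and 0.43. Of the other receptors, 6 of 7 were well above background and 0 met the criteria, with log2 ratios from −0.58 to 0.23. They include *Itgam*, the alpha chain of complement receptor 3, whose bright probe holds a tandem repeat of 20 bases and had signals of 60045 in WT and 62438 in Cx30 KO, close to those of the *Siglech* probe with a repeat (59850 and 62401). The other *Itgam* probe had signals of 21.6 and 22.2, of which the first was not well above background, so that the level of *Itgam* is uncertain here. The beta chain of that receptor, *Itgb2*, had a log2 ratio of −0.29.

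Regulators, which protect host cells, had 13 of 18 members well above background. *Cd59a*, which blocks the membrane attack complex, fell from a signal of 823 in WT to 454 in Cx30 KO, at a ratio of 0.58 (log2 ratio −0.79, Z-score −2.39), and its other probe (219 and 119) also met the criteria at −0.81. Its paralogue *Cd59b* had a log2 ratio of 0.20. *Clu*, clusterin, an abundant astrocyte product that binds terminal complexes, had −0.09. Among these genes and the members together, those that met the criteria at every probe above background were *C4b*, *C4a* and *Cd59a* on the lower side and *Colec11* on the higher side. *C4a* and *Colec11* had 1 such probe each, and that of *C4a* cannot be told from *C4b*, so it is not a separate observation.

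**Figure D5:**
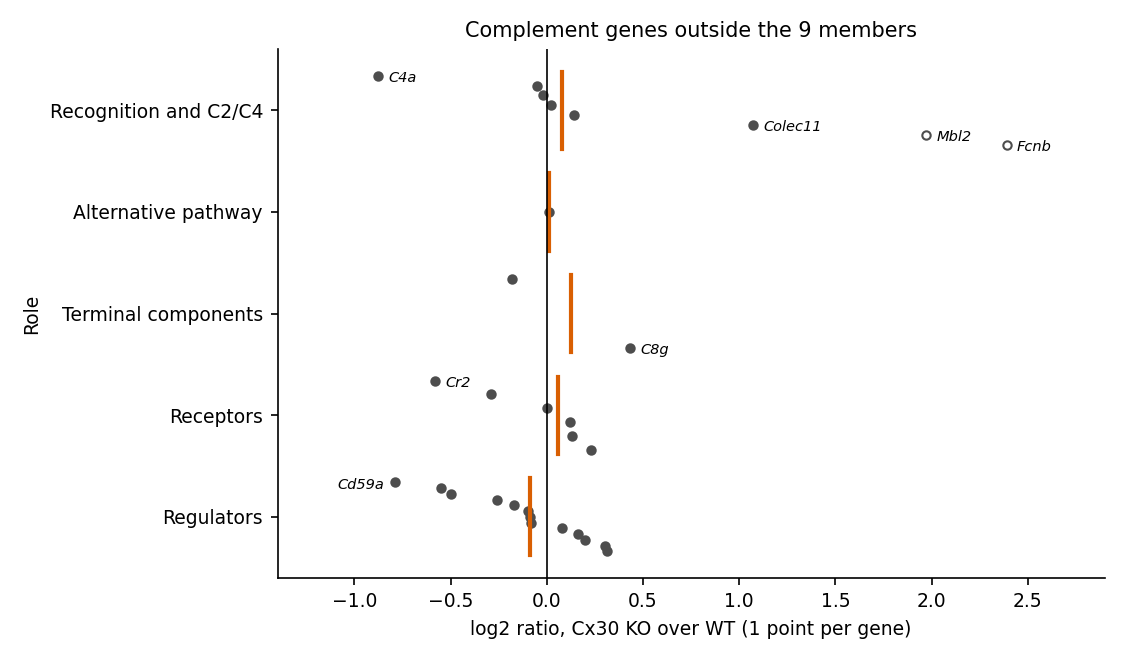
Log2 ratio of Cx30 KO over WT for the 30 further complement genes well above background by role (1 point per gene), with the median of each role as a vertical bar and open points for genes well above background on 1 array only, whose measured ratio is not a bound. Most points lie near 0, and *C4a*, *Cd59a* and *Colec11* are those that meet the study's criteria.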

How the data were processed

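Cy3-labelled striatal RNA was measured on 2 single-colour arrays of 62976 spots, 1 pool for each genotype. The authors deposited the spot intensities of Agilent Feature Extraction (version 10.7.1.1 in the file headers, 9.5.1.1 in the submitters' processing notes), whose processed signal is a linear intensity with the background subtracted and trends within the array removed, not normalised between arrays. Here control spots were left out, and 79 spots flagged as outliers on either array were left out of both. No spot (0) was saturated, replicate spots were averaged on the log2 intensity scale, and each array's 75th percentile was subtracted. A gene was given by its brightest probe that was well above background on either array or both, with its measured ratio in counts, medians and plots. Where that probe was well above background on 1 array only, the text gives a bound, with the dim side set to the higher of its own signal and the lowest signal well above background there. The position of each probe is that of the files (mm9).

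With 1 array a genotype no test, no leave-one-out value and no error between mice could be had, so the number of arrays sets the limit of precision. The Z-score and the study's criteria were applied as described with the results; the methods do not state the probes behind the Z-score. The genes named are the 9 members at every probe, other complement genes that met the criteria or were bounded on 1 array, the 3 genes farthest from 0 in the main marker lists and *Gjb6*. *Ephb2*, *Wnt4* and other neighbours, *Itgam*, *Siglech* and other genes outside that rule were named after their values were seen. The members and lists were chosen with earlier results of these data known. Alternative settings were scaling by the array median, quantile normalisation, normexp background correction (offset 50) with quantile normalisation in limma 3.58.1 (R 4.3.3), the normalised values of the authors, dim probes kept, a filter that asks for both arrays, averaging over probes within a gene, Z-scores from all probes or from the 200 nearest, ratio limits of 2 and 0.5, and bounded values. Leaving out probes with a tandem repeat (units of 1 to 4 bases, at least 3 copies and 12 bases) was chosen after seeing the data. The authors' table of normalised values held linear intensities of which 98.16% differed by at most 1% from processed signals after quantile normalisation. The scripts were tested on simulated ratios. Older symbols were updated on 1897 probes with RefSeq.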

Additional observations from a re-analysis of the deposited data

How the results depend on the processing

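The call of *C4b* depended on the criteria and not on the scaling. With the Z-score taken over all probes, and with ratio limits of 2 and 0.5, 0 members and 0 member probes were lower, since the *C4b* Z-score was then −1.43 and its ratio lies above 0.5. In the other 10 alternatives 1 member was lower, and 0 members were higher in all 12. The log2 ratio of *C4b* ran from −0.88 to −0.81, and those of the C1q genes, *C3ar1*, *C5ar1* and *Serping1* kept their sign in all 9 alternatives that can move a ratio. *C3* ran from −0.19 to 0.06 and changed sign with the mean of its probes. *C3ar1* was as low as 0.34 and *C5ar1* as low as 0.21. The microglial minus astrocytic median ran from −0.21 to −0.11, that of the microglia markers from −0.50 to −0.37 and that of the pan-reactive genes from −1.28 to −1.04.

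Of the further complement genes, 1 was lower and 0 higher under normexp, 0 lower and 2 higher with the Z-score over all probes, 0 lower with ratio limits of 2 and 0.5, and 2 higher with no filter on dim probes. Their median of 0.01 changed sign in 6 of 9 alternatives, between −0.08 and 0.02, and has no direction. Over all genes 746 were lower and 522 higher, with 58.8% of calls lower. A Z-score over all probes gave 455 and 502, with 47.5% of calls lower, ratio limits of 2 and 0.5 gave 428 and 340, and the filter on both arrays gave 502 and 328. The cause was not tested. *C3ar1*, *C5ar1*, *C3* and *Serping1* are dim, and *Cfb* is below what the arrays can measure. No paired analysis was possible because each genotype has 1 array.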
